A study of Gallus gallus with 21 samples.

Results

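WNT proteins are secreted ligands that bind Frizzled receptors, alone or with the co-receptor LRP5 or LRP6, and in the canonical branch of the pathway they stop the breakdown of β-catenin, which then acts in the nucleus with LEF1 and the TCF factors. R-spondins bind LGR receptors and keep Frizzled proteins at the cell surface, whereas the DKK, SFRP and WIF families are secreted and restrain the signal. In mammals WNT4 and RSPO1 are the ligands known for their part in ovary formation, and AXIN2 is widely used as a readout of the canonical branch.

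The genes described here were those whose symbol placed them among WNT ligands, Frizzled receptors, LRP5 and LRP6, R-spondins and their LGR receptors, secreted antagonists of the DKK, SFRP and WIF families, or the AXIN, Dishevelled, Naked, APC, Porcupine, β-catenin and LEF/TCF proteins. Of 19874 probe sets with values, 49 carried 1 such gene each and covered 33 genes, among 9774 genes in all. The gene table of the chicken named 57 genes of these families, and the other 24, WNT4 and RSPO1 among them, were not analysed here, so the ovary ligands known from mammals have no value below. Each gene was represented by the probe set with the highest mean over all arrays. Further probe sets existed for 12 of the 33 genes, and these are given where the text turns on them.

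The arrays held RNA from White Leghorn embryos after 18 days of incubation (ed18), with no treatment or genetic change in any of them. The groups were ovary (left gonad of females, 3 embryos), testis (left gonad of males, 4), female brain (4), male brain (3), female heart (4) and male heart (3), with 21 arrays in all. The brain sample was the diencephalon with remnants of other regions, the heart sample a piece of the apex, and the sex of an embryo was read from its reproductive tract. The 3 tissues came from the same 8 embryos, but embryo 9 had a gonad array only and embryo 10 brain and heart arrays only. The paper left out arrays that failed quality control. The extraction kit used for gonads was not the one used for soma, so that tissue and kit cannot be told apart in any comparison of gonad with soma.

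All values are log2 expression values as deposited, and a difference of 1 is a 2-fold change. A tissue either had values for a probe set in all its 7 arrays or in none. In every tissue with values the higher of the 2 sex means reached at least 4.0, and values below 4.0 were taken as not separated from background. Arrays of 1 group correlated at 0.965 or more across probe sets. The tissue labels were checked on defining genes: FOXL2, CYP19A1 and HSD17B1 lay above background in all 3 ovaries and below it in all 4 testes, and AMH and SOX9 were lower in ovaries than in testes. DMRT1, the other testis marker, lay at 13.33 to 13.55 in ovaries and 13.70 to 13.91 in testes, a small gap that missed the threshold given below.

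Gonad, brain and heart all had values for 15 of the 33 genes. DKK2, DKK4, FZD5, NKD1, SFRP4, WNT6 and WNT9A had values in gonads alone (7 genes). FZD3, LEF1, RSPO3, WIF1 and WNT11 had values in gonad and brain (5 genes), and FZD2 had them in gonad and heart. FZD9 and TCF7L2 had values in brain and heart, RSPO2 and WNT2B in brain alone, and LGR4 in heart alone. The genes lay on 16 chromosomes, and 0 of them on the Z chromosome, the sex chromosome that males carry in duplicate.

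In gonads, 9 of 28 measured WNT genes differed between ovary and testis. Lower in ovaries were 6 genes, namely the ligand WNT5A, the R-spondin RSPO3, the secreted antagonists WIF1 and DKK2, the receptor FZD8 and the co-receptor LRP5. Higher in ovaries were 3 genes, namely the antagonist family member DKK3, the ligand WNT9A and the receptor FZD4. A gene was called changed when its fold-change exceeded 1.5 with an adjusted p below 0.05, in a limma fit over all probe sets. Differences are ovary minus testis, the reverse of the study's male-to-female ratio, so that male-biased genes carry a negative sign. Called lower were 21.4% of the WNT genes tested, against 12.8% of all 16499 probe sets tested, and called higher were 10.7%, against 13.8% of all. Here and below, WNT genes are counted by 1 probe set each, that of the highest mean, and the shares of all count every probe set. The 2 kinds of share are therefore not strictly alike. The median difference was -0.247 over the WNT genes and -0.02 over all probe sets. DKK2, DKK4, FZD5 and WNT6 had ovary means below background and passed the level filter through testes alone. Their differences could only be negative, and they count in these WNT shares and this median. By role, 1 of 5 ligands was higher and 1 lower, the 1 R-spondin was lower, 1 of 7 secreted antagonists was higher and 2 lower, 1 of 9 receptors and co-receptors was higher and 2 lower, and 0 of 5 cytoplasmic components and 0 of 1 nuclear factor were called.

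Markers of several cell types also differed between ovary and testis. The arrays measured whole gonads, in which fewer cells of a type and less RNA per cell cannot be told apart. Of 5 measured markers of smooth muscle and connective tissue, 4 (ACTG2, MYH11, COL1A1 and DCN) were lower in ovaries. The mean of the 5 was 9.75 to 10.23 in ovaries and 12.15 to 12.56 in testes. That gap was widest for the smooth muscle genes ACTG2 (5.04 to 5.24 in ovaries, 10.89 to 11.50 in testes) and MYH11. It was smaller for connective tissue genes such as DCN (12.99 to 13.38 in ovaries, 13.76 to 14.00 in testes), and COL1A2 was not called. Markers of chromaffin and nerve cells (CHGA, CHGB, DBH, STMN2 and TH) averaged 8.15 in the ovary of embryo 12, 6.37 in that of embryo 2 and 3.51 in that of embryo 20, against 2.73 to 3.23 in testes. Both blood markers (HBA1 and HBAD) were higher in ovaries, with means of 12.86 to 14.25 in ovaries and 11.31 to 12.77 in testes, and so was UMOD, the 1 kidney marker with values in gonads. Of 3 germ cell markers PIWIL1 was higher in ovaries, while DAZL (0.49, adjusted p = 0.318) and DDX4 (0.76, adjusted p = 0.197) were not called. The part of these cells in the WNT gene differences was not tested. Without the ovaries of embryos 2 and 12, which leaves 1 ovary that is assumed to vary like the other groups, 2 WNT genes were higher and 5 lower in the ovary, and 5 of the 9 calls were kept (DKK2, DKK3, FZD8, WIF1 and WNT5A). The 4 that were lost then differed by -2.17 for RSPO3 (adjusted p = 0.0899), 1.87 for WNT9A (0.0812), -0.71 for LRP5 (0.236) and 0.61 for FZD4 (0.248).

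**Figure D1:**
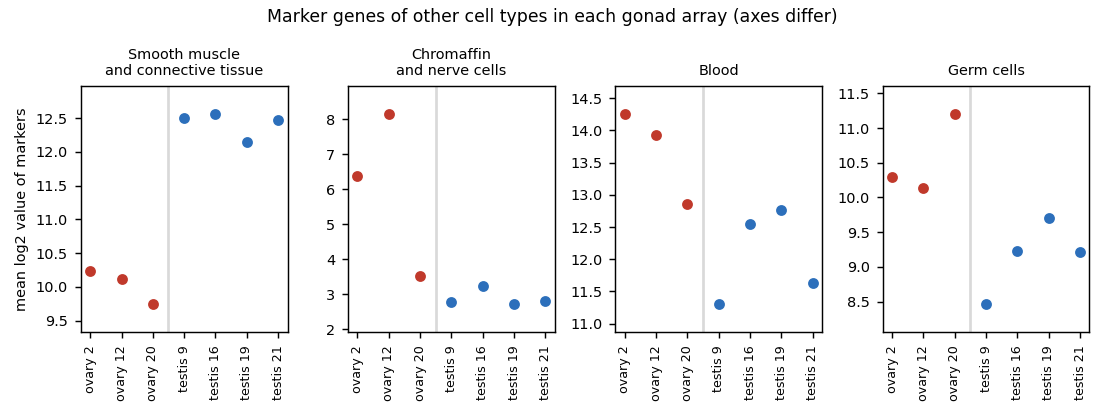
Mean log2 value of 4 marker lists in each gonad array (y axis, range set per panel), ovaries in red and testes in blue, labelled by embryo number. Smooth muscle and connective tissue markers lie between 9.75 and 10.23 in ovaries and between 12.15 and 12.56 in testes, a gap widest for ACTG2 and MYH11. Chromaffin and nerve cell markers differ among the 3 ovaries.

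Among ligands, WNT5A, which acts mainly through pathways that do not need β-catenin, had the clearest sex difference. Its values were 8.96, 8.85 and 9.0 in ovaries (embryos 2, 12 and 20) and 11.28, 11.25, 10.90 and 11.07 in testes (embryos 9, 16, 19 and 21). All ovaries lay close together and well under the lowest testis. The difference was -2.19 ± 0.21 (SE), a 4.56-fold lower level in ovaries (adjusted p = 5.24e-07), and the other probe sets of WNT5A gave -2.42 and -2.31.

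WNT9A, a ligand known mainly from joint and limb development, ran the other way. It was at 5.88, 5.71 and 6.25 in ovaries and at 3.98, 5.20, 3.79 and 4.58 in testes. The groups did not overlap, but testes of embryos 9 and 19 lay under the background level. The difference was 1.56 ± 0.35 (SE, adjusted p = 0.0104). WNT5B averaged 7.11 ± 0.61 in ovaries (SD, n = 3) and 7.29 ± 0.07 in testes (SD, n = 4), with a much wider spread among ovaries, and did not pass the test. WNT6 did not pass either, with a mean of 3.84 in ovaries, below background, and 4.66 in testes. WNT11 stood at 4.50 to 4.52 in ovaries and 4.51 to 4.53 in testes and hardly varied between arrays. Its brain arrays lay at 4.45 to 4.52 as well, so these values cannot show a signal above background.

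RSPO3, an R-spondin that raises the response of cells to WNT ligands, had values of 9.16, 9.0 and 9.28 in ovaries and 11.95, 11.73, 10.94 and 11.17 in testes. Every testis lay above every ovary. The difference was -2.30 ± 0.51 (SE), a 4.93-fold lower level in ovaries (adjusted p = 0.00364), and the other probe set gave -2.47.

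The 2 largest differences in gonads were those of secreted antagonists. DKK2, which binds the LRP co-receptors, was at 2.20, 2.21 and 2.22 in ovaries and at 7.24, 7.28, 6.95 and 7.05 in testes. It was thus measured in testes and lay below background in every ovary. The fitted difference was -4.92 ± 0.13 (SE, adjusted p = 9.91e-08), and with the ovaries set at the background level the gene was at least 8.76-fold lower in ovaries. Ovary values were nearly constant below background, so this SE and adjusted p do not measure the spread of DKK2 expression among ovaries.

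WIF1, which binds WNT ligands outside the cell, had values of 5.88, 4.67 and 4.64 in ovaries and 8.0, 9.21, 9.43 and 9.50 in testes. The highest ovary, of embryo 2, and the lowest testis, of embryo 9, remained far apart. The difference was -3.97 ± 0.40 (SE), a 15.7-fold lower level in ovaries (adjusted p = 7.62e-06).

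DKK3, a divergent member of the DKK family, was at 11.94, 11.94 and 11.46 in ovaries and at 8.95, 9.14, 9.20 and 10.84 in testes. The testis of embryo 21 stood apart from the other 3 testes but still lay below all ovaries. The difference was 2.25 ± 0.32 (SE), a 4.75-fold higher level in ovaries (adjusted p = 3.16e-05), and it stayed between 1.93 and 2.68 under all alternatives, the omission of embryo 21 among them. Within the DKK family, DKK2 and DKK3 thus differed in opposite directions, and DKK4 had means of 3.13 ± 0.44 in ovaries (SD, n = 3) and 4.35 ± 0.89 in testes (SD, n = 4), with overlapping arrays and no call.

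None of the SFRP proteins, which resemble the ligand-binding part of Frizzled receptors, was called. SFRP1 averaged 8.80 ± 0.61 in ovaries and 9.18 ± 0.43 in testes (SD, n = 3 and 4). SFRP2 lay at 8.85 to 8.97 in ovaries and 9.12 to 10.23 in testes, without overlap, but its difference of -0.72 missed the threshold (adjusted p = 0.0637), and passed it at -0.89 without embryo 9 (adjusted p = 0.032). SFRP4 averaged 5.01 ± 1.03 in ovaries and 4.14 ± 0.56 in testes (SD, n = 3 and 4), the ovary of embryo 20 being the highest at 6.19.

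**Figure D2:**
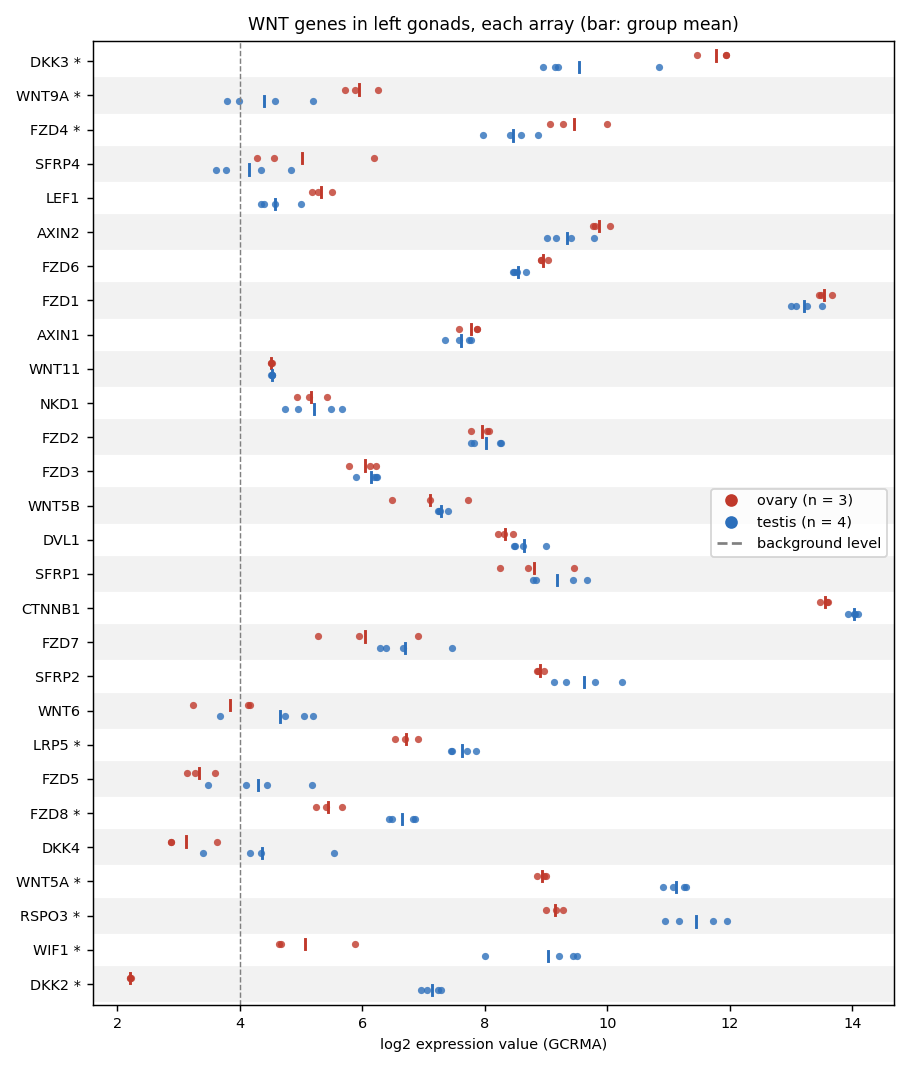
Log2 expression value of the 28 WNT genes with values in gonads (x axis), each point 1 array, ovary in red above testis in blue, short bars the group means and the dashed line the background level of 4.0. Genes run from higher in ovaries (top) to lower in ovaries (bottom), and asterisks mark the 9 called genes; DKK2 lies below background in every ovary and near 7 in every testis.

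Among receptors, FZD8 was at 5.67, 5.24 and 5.41 in ovaries and at 6.44, 6.82, 6.49 and 6.86 in testes. The 2 ranges were separate. The difference was -1.21 ± 0.19 (SE), or 2.31-fold lower in ovaries (adjusted p = 8.07e-05).

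LRP5, a co-receptor of the canonical branch, had values of 6.69, 6.53 and 6.91 in ovaries and 7.44, 7.47, 7.71 and 7.86 in testes. The groups did not overlap. The difference was -0.91 ± 0.26 (SE, adjusted p = 0.0113), and it was -0.82 with an adjusted p of 0.0632 without embryo 12. A weaker probe set of LRP5 was called in the same direction, with means of 3.09 in ovaries, below background, and 4.46 in testes. Its lowest testis, at 3.35, lay below background too, so the size of that difference is uncertain. With ovaries below background, this probe set passed the level filter through testes alone. Its direction was therefore fixed and adds nothing to that of the first.

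FZD4, which also serves as the receptor of the ligand Norrin, was at 9.99, 9.28 and 9.07 in ovaries and at 8.59, 8.87, 7.97 and 8.41 in testes. The ovary of embryo 20 and the testis of embryo 16 came within a short distance of each other. The difference was 0.99 ± 0.26 (SE, adjusted p = 0.00622), and 0.87 in the other probe set, but it fell to 0.72 without embryo 2 (adjusted p = 0.0536).

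The remaining 6 receptors were not called. FZD6 was at 8.91 to 9.03 in ovaries and 8.46 to 8.67 in testes, a difference of 0.42 (adjusted p = 0.0252) whose fold-change of 1.34 lay under the threshold. FZD1 averaged 13.54 in ovaries and 13.20 in testes. FZD2 averaged 7.96 in ovaries and 8.02 in testes, and FZD3 6.04 in ovaries and 6.13 in testes, a difference of -0.09. A dimmer probe set of FZD3 differed by 0.95 (adjusted p = 0.217), with testes below background. FZD7 varied among arrays, from 5.27 to 6.91 in ovaries and from 6.28 to 7.46 in testes, and was called lower in ovaries without embryo 12 (-1.09, adjusted p = 0.0083). FZD5 averaged 3.34 in ovaries, below background, and 4.30 in testes.

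Inside the cell, differences were small. CTNNB1, which encodes β-catenin, was at 13.58, 13.47 and 13.60 in ovaries and at 14.04, 14.09, 13.93 and 14.02 in testes. No ovary reached the lowest testis. The difference of -0.47 ± 0.10 (SE) had an adjusted p of 0.00168, but its fold-change of 1.39 was under the threshold, so it was not called.

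AXIN2, the feedback inhibitor that the canonical branch induces, was at 9.80, 10.04 and 9.77 in ovaries and at 9.40, 9.78, 9.02 and 9.16 in testes. The testis of embryo 16 reached into the range of the ovaries. The difference was 0.53 ± 0.19 (SE, adjusted p = 0.0421), with a fold-change of 1.44 that did not reach the threshold. The other probe set gave 0.40 (adjusted p = 0.165), and without embryo 16 the first rose to 0.67 and was called.

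LEF1, a DNA-binding partner of β-catenin, had low values of 5.27, 5.18 and 5.50 in ovaries and 5.00, 4.58, 4.34 and 4.40 in testes. The groups did not overlap. The difference of 0.73 ± 0.28 (SE) missed the threshold (adjusted p = 0.0648), although it was called in a fit of gonad arrays alone (adjusted p = 0.0221) and without embryo 9 or embryo 10. AXIN1, a scaffold of the complex that degrades β-catenin, differed by 0.17, DVL1, a Dishevelled protein that relays the signal from receptors, by -0.32, and NKD1, which binds Dishevelled, by -0.05, and none of the 3 passed.

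Of 65 further pathway genes outside these families, 32 had values in gonads. Of these, 7 were called higher and 8 lower in ovaries, beside 13.8% and 12.8% of all probe sets. SULF1, an enzyme that trims heparan sulphate at the cell surface, had means of 7.54 in ovaries and 4.54 in testes (7.99-fold, adjusted p = 1.81e-07). ROR1, a receptor tyrosine kinase that binds WNT5A, had means of 10.12 in ovaries and 7.47 in testes, opposite in direction to its ligand (6.29-fold, adjusted p = 3.3e-07). The secreted antagonists FRZB and SOSTDC1 were not called, and the surface glycoprotein TPBG was higher in ovaries (7.23 in ovaries and 6.0 in testes).

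Of the 5 measured planar polarity genes, PRICKLE1 (8.0 in ovaries and 9.26 in testes) and PRICKLE2 (6.07 in ovaries and 7.25 in testes) were lower in ovaries, and INVS was higher. DAAM1 was also called lower (3.44 in ovaries, below background, and 4.06 in testes, at least 1.05-fold). It passed the level filter through testes alone, so its direction was fixed, and its bound lay under the fold threshold. Of 6 nuclear partners of β-catenin and the TCF factors, the Groucho co-repressors TLE1 (5.81 in ovaries and 7.16 in testes) and TLE3 (4.21 in ovaries and 5.28 in testes) and the co-activator BCL9L were lower, and TLE4 was higher (11.11 in ovaries and 10.49 in testes). Of 6 genes known as targets of the pathway, MYC (0.83) and TNFRSF19 (0.77) were higher in ovaries, LBH (-0.64) and SOX9 (below background in ovaries, at least 21-fold) were lower, and CCND1 and FST were not called. SOX9 is also the testis marker used above. Of 6 measured kinases and other parts of the β-catenin degradation complex, GSK3A and CSNK1A1 among them, 0 were called.

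In brain, 0 of 24 measured WNT genes were called in either direction, beside 0.310% of all probe sets higher in females and 1.27% lower. At such shares a set of this size would often hold no call. In the paper most male-biased genes of brain and heart lay on the Z chromosome, and none of the measured WNT genes lay there. Whether this bears on the absence of calls was not tested. Differences between female and male brain ran from -0.76 (WNT2B) to 0.57 (RSPO3), with standard errors of 0.08 to 0.67, and by the probe set chosen for each gene 1 had an unadjusted p under 0.05. That gene was FZD8, at 6.24 ± 0.32 in female brain (SD, n = 4) and 6.76 ± 0.26 in male brain (SD, n = 3), without overlap, with a difference of -0.52 and an adjusted p of 0.28. RSPO3 varied widely within a sex, from 7.13 to 9.73 in female brain and from 7.13 to 8.63 in male brain, and its other probe set differed by 1.06 (unadjusted p = 0.04, adjusted p = 0.458). WNT2B varied likewise, from 4.07 to 5.43 in female brain and from 3.89 to 6.90 in male brain, where embryo 19 lay below background. TCF7L2 differed by 0.17, and a dimmer probe set of it by -0.67 (unadjusted p = 0.0204, adjusted p = 0.35), with female brains below background on average.

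In heart, 0 of 19 measured WNT genes were called, beside 0.393% of all probe sets called higher in females and 1.34% called lower. As in brain, a set of this size would often hold no call at such shares. Of the 19, 15 had a lower mean in female heart, and the share of all probe sets with a lower mean was not counted. The median difference was -0.23 beside -0.0286 over all probe sets. All 19 genes were read from the same arrays, so their directions are not independent. AXIN1 (-0.50), DVL1 (-0.33) and FZD9 (-0.56) had an unadjusted p under 0.05, with adjusted p between 0.252 and 0.407. Another probe set of AXIN1 differed by -0.26 (unadjusted p = 0.112) and another of DVL1 by -0.31 (unadjusted p = 0.0988). FZD9, a Frizzled receptor, was at 8.28 to 8.70 in female heart and 8.70 to 9.41 in male heart. LGR4, the R-spondin receptor with values in heart alone, averaged 8.25 ± 0.41 in female heart and 8.87 ± 0.49 in male heart (SD, n = 4 and 3), with overlapping arrays. WNT5A differed by -0.42 in heart and was called lower there only when embryo 10, the female with the highest heart value (7.01), was left out.

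**Figure D3:**
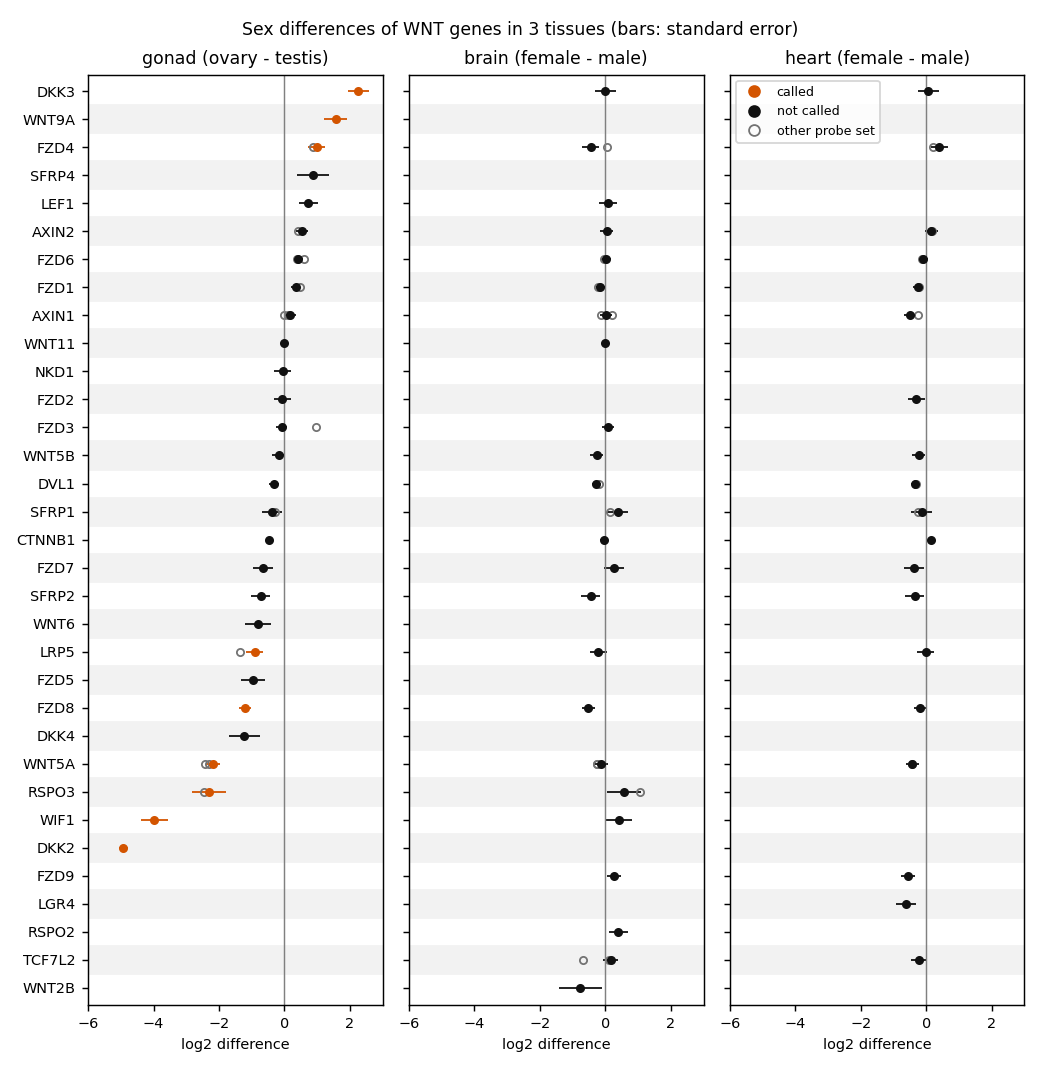
Female minus male log2 difference of each WNT gene with its standard error (x axis) in gonad, brain and heart, with called genes in orange, genes not called in black and other probe sets of the same gene as open circles. The 9 called genes all lie in the gonad panel, from -4.92 to 2.25, and the filled points of brain and heart stay within -0.76 and 0.57. The lowest point, DKK2, rests on ovary values below background, so its size and standard error are uncertain. An empty row means that the tissue has no values.

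Whether the sex difference of a gene was another in gonad than in soma was tested directly for the 15 genes with values in all tissues, as the difference in gonad minus the mean of those in brain and heart, at an adjusted p under 0.05. Of these, 6 passed. The female-minus-male difference was higher in gonad than in soma for 3 (10.2% of all probe sets tested) and lower for 3 (8.49% of all). WNT5A differed by -1.91 ± 0.26 (SE, adjusted p = 5.89e-05), DKK3 by 2.22 ± 0.39 (0.000583) and CTNNB1 by -0.51 ± 0.13 (0.00751). FZD8 differed by -0.85 (adjusted p = 0.0138), FZD4 by 1.01 (0.0314) and FZD1 by 0.54 (0.0314). The last 3 calls were not stable. FZD8 lost its call without embryo 12 or 21, and FZD4 without embryo 2, 10, 12, 19 or 21. FZD1 lost it without embryo 2, 9, 12, 19, 20 or 21. In these fits adjusted p lay between 0.0521 and 0.154. Genes with a higher female-minus-male difference in gonad than in soma then numbered 1 without embryo 2, 12, 19 or 21. The differences themselves stayed at -0.93 to -0.69 for FZD8, 0.82 to 1.13 for FZD4 and 0.46 to 0.64 for FZD1 under all alternatives. With the mean of its probe sets, FZD1 differed by 0.61 and was not called either (adjusted p = 0.0501). LRP5, called in gonads, did not pass here (-0.79, adjusted p = 0.0947).

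For CTNNB1, the ovary was the group that stood out, since its 3 arrays (13.47 to 13.60) lay below all arrays of testis, brain and heart (13.63 to 14.09). For WNT5A it was the testis, since ovaries reached up to 9.0, brains up to 7.63 and hearts up to 7.01, and the lowest testis was at 10.90. For DKK3 it was the testis as well, since ovaries (11.46 to 11.94), brains (11.84 to 12.37) and hearts (13.55 to 14.22) all lay above the 4 testes (8.95 to 10.84).

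Across tissues, most WNT genes tested were called in each pair, and many of all probe sets were called as well. Against brain, 12 of 20 genes were higher in gonad and 5 lower, where 34.9% of all probe sets were called higher and 23.6% lower. Against heart, 8 of 16 were higher in gonad and 4 lower, where 31.2% of all probe sets were called higher and 21.2% lower. In brain against heart, 6 of 17 were higher and 7 lower, where 25.5% of all probe sets were called higher and 33.0% lower. In these comparisons the sexes had equal weight. Centring every array on its median moved the median difference of all probe sets by -0.206 for gonad against brain and by -0.134 for gonad against heart, which took away the call of LEF1 in gonad against brain and added FZD8 there and DVL1 against heart, both as lower in gonad.

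WNT5A had the largest difference of gonad from brain, with 8.85, 10.90 and 11.28 as the lowest, median and highest gonad array, against 7.01, 7.33 and 7.63 in brain and 5.79, 6.55 and 7.01 in heart. It was 6.48-fold higher in gonad than brain (2.69 ± 0.15, SE, adjusted p = 1.75e-11) and 12.1-fold higher in gonad than heart (3.60 ± 0.15, adjusted p = 5.42e-13). Even ovaries, the lower of the 2 gonads, lay above all brain and heart arrays. WNT5B also had its highest values in gonad, at 6.49 to 7.72 against 4.96 to 5.51 in brain and 6.13 to 6.50 in heart, where the ovary of embryo 2 overlapped the heart arrays.

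AXIN2 followed the order gonad, brain, heart, and no array of one tissue overlapped another. Its lowest, median and highest arrays were 9.02, 9.77 and 10.04 in gonad, 8.03, 8.23 and 8.52 in brain, and 6.18, 6.35 and 6.94 in heart. It was 2.56-fold higher in gonad than brain (adjusted p = 4.32e-08), 8.94-fold higher in gonad than heart (6.17e-13) and 3.49-fold higher in brain than heart (8.03e-10).

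The antagonist SFRP1 had the same order, with arrays of 8.25 to 9.66 in gonad, 6.45 to 8.02 in brain and 4.92 to 5.73 in heart. It was higher by 1.96 in gonad than brain, by 3.60 in gonad than heart and by 1.65 in brain than heart. SFRP2, in contrast, was highest in brain, with arrays of 8.85 to 10.23 in gonad, 9.25 to 10.37 in brain and 7.30 to 8.54 in heart. Its gonad and brain arrays overlapped, and the gonad differed from brain by -0.74 and from heart by 1.09.

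DKK3 was lowest in gonad and highest in heart, at 8.95 to 11.94 in gonad, 11.84 to 12.37 in brain and 13.55 to 14.22 in heart, with a 9.59-fold lower level in gonad than heart (adjusted p = 4.28e-10). Its overlap with brain came from ovaries only. WIF1 differed by -1.12 between gonad and brain when the sexes were averaged. That mean hides the sexes, since ovaries (4.64 to 5.88) lay below, and testes (8.0 to 9.50) in or above, the range of brain (7.5 to 8.71). RSPO3 was 2.03 higher in gonad than brain, where ovaries (9.0 to 9.28) lay within, and testes (10.94 to 11.95) above, the range of brain (7.13 to 9.73).

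Receptors had distinct tissue orders. FZD1 was highest in gonad, at 12.99 to 13.67, against 11.11 to 11.65 in brain and 11.69 to 12.14 in heart, and was higher in gonad than brain by 1.88 (adjusted p = 5.19e-12) and higher in gonad than heart by 1.47 (2.1e-10). FZD7 was also higher in gonad, by 1.99 than brain and by 1.62 than heart, but brain and heart arrays sat close to the background level (4.14 to 5.13). FZD6 differed by 1.5 between gonad and brain and by -1.21 between brain and heart.

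FZD4 was highest in heart, with arrays of 7.97 to 9.99 in gonad, 6.65 to 7.63 in brain and 9.98 to 11.04 in heart. It was 9.58-fold lower in brain than heart (-3.26 ± 0.18, SE, adjusted p = 1.23e-11), and the gonad lay between them, with a difference of -1.49 from heart and 1.77 from brain. FZD8 had its highest arrays in heart as well (7.47 to 7.98), and it differed by -1.63 between gonad and heart and by -1.18 between brain and heart.

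FZD9 was 6.49-fold lower in brain than heart (5.6 to 6.50 in brain and 8.28 to 9.41 in heart, adjusted p = 1.61e-09), and it had no values in gonad. FZD3 was 4.29-fold lower in gonad than brain (5.78 to 6.23 in gonad and 7.84 to 8.47 in brain). FZD2 was 2.55-fold lower in gonad than heart (7.77 to 8.26 in gonad and 8.38 to 9.74 in heart). LRP5 was lowest in brain, with a difference of 1.12 for gonad against brain and -1.05 for brain against heart, while gonad and heart differed by 0.07 (SE 0.18, adjusted p = 0.742).

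Among intracellular components, DVL1 was highest in brain, with arrays of 8.22 to 8.99 in gonad, 10.45 to 11.07 in brain and 8.57 to 9.20 in heart. It was 5.09-fold lower in gonad than brain (adjusted p = 4.6e-13) and 3.65-fold higher in brain than heart (7.79e-12). TCF7L2, another DNA-binding partner of β-catenin, was 4.6-fold higher in brain than heart (7.04 to 8.13 in brain and 4.93 to 5.53 in heart, adjusted p = 3.31e-08). LEF1 was higher in gonad than brain by 0.67 (adjusted p = 0.00812) at low values of 4.34 to 5.50 in gonad and 3.77 to 5.11 in brain.

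CTNNB1 was among the genes not called in any tissue pair, with differences of -0.11 for gonad against brain, -0.10 for gonad against heart and 0.01 for brain against heart. AXIN1 was higher in gonad by 0.98 than brain and by 1.01 than heart. Its probe sets disagreed, since another gave 0.09 for gonad against brain and 0.66 for brain against heart, where the first gave 0.03. With the mean of its probe sets, the gonad difference from brain was 0.50 and was not called.

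**Figure D4:**
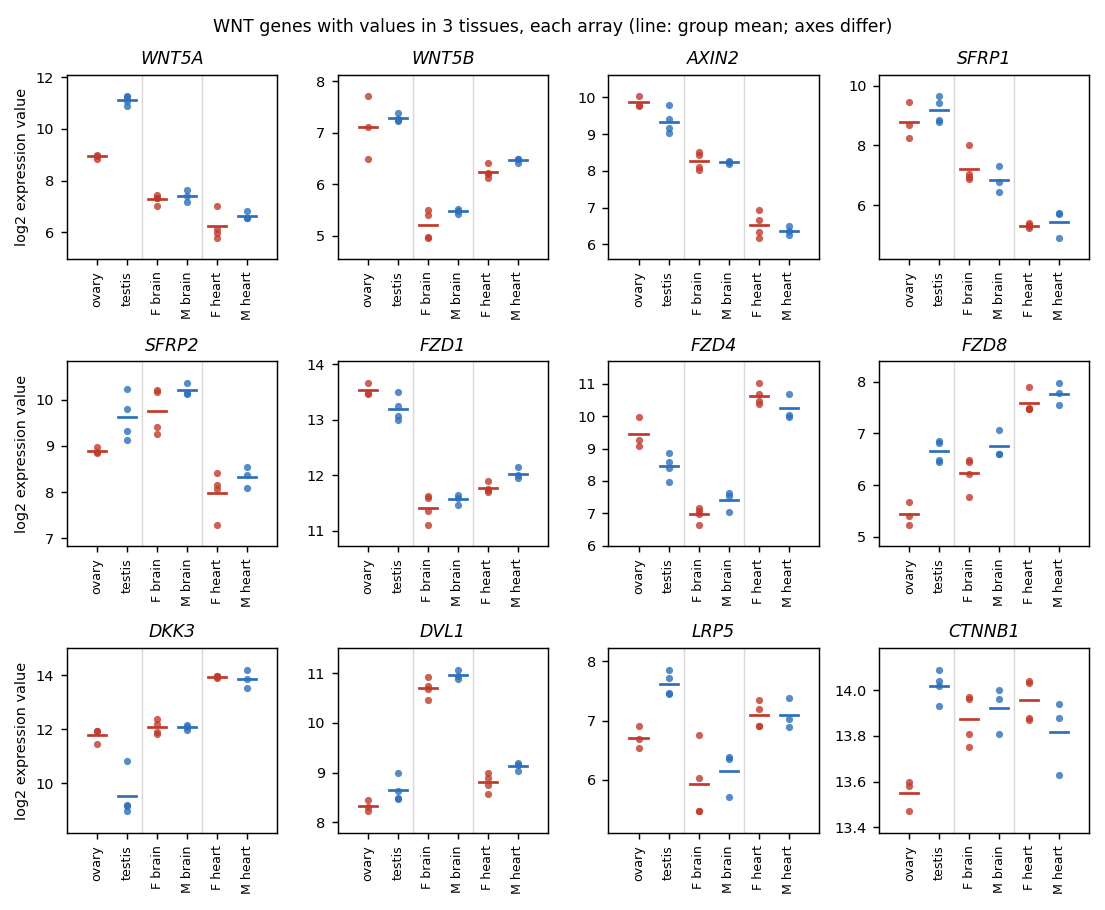
Log2 expression value (y axis, range set per gene) of 12 WNT genes with values in all tissues, each point 1 array of ovary, testis, female (F) and male (M) brain, and female and male heart, with lines at the group means. WNT5A and AXIN2 are highest in gonad, DVL1 in brain, and DKK3, FZD4 and FZD8 in heart.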

How the data were processed

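The authors hybridised RNA to Affymetrix Chicken Genome arrays and deposited log2 expression values per probe set, made with GCRMA background correction, quantile normalisation and median polish, and filtered by level and by detection calls per tissue; the submitters' processing notes name R 2.4.1 and MAS5. Labels of some arrays give a human array design, which the chicken probe set names contradict. Probe sets were paired with genes through the platform annotation (16197 with 1 gene, 85 with several, 3592 with none). Quantile normalisation fixes each array's overall distribution, so a change shared by most genes would not be seen. Arrays have no read depth, and the number of embryos limits the precision.

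Values were used as deposited. In R 4.3.3, one limma model (version 3.58.1), in which sex and tissue formed 6 groups, was fitted to the 19874 probe sets with deposited values. The study's own model preceded its filter, and the paper counts more expressed probe sets per tissue than were deposited (16499 in gonad, 16113 in brain and 15282 in heart). In the fit used here, p-values were adjusted by the Benjamini-Hochberg method over all probe sets with values in the groups compared. Adjusted p in the text come from this fit unless an alternative is named beside them. Of several probe sets of a gene, that of the highest mean was taken, and calls required a fold-change above 1.5 with an adjusted p below 0.05. Fold-changes of called genes with a group mean under 4.0 were given as a bound against 4.0. Named in the text are all called genes in gonads, per tissue pair the 5 largest in each direction, and WNT4, RSPO1, CTNNB1, LEF1 and AXIN2 where measured; further genes were added to cover each family. The members, the further pathway genes and the markers were chosen with earlier results of these data known. The fit was tested on simulated data. Figures were drawn with matplotlib 3.10.9.

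Embryo numbers in the labels paired the tissues: deviations from the group means correlated at 0.164 to 0.455 in all 19 pairs of arrays from the same embryo, and at -0.433 to 0.199 in 54 pairs from different embryos. Alternatives were a block for the embryo, fits of the compared tissues alone, array centring, a level filter, array weights, the mean of a gene's probe sets, other fold thresholds and the omission of each embryo. The omission of the ovaries of embryos 2 and 12 was added after the data were seen. Sequences of promoters or proteins were not used here.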

Additional observations from a re-analysis of the deposited data

Results flagged for a closer look

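In 6 of 71 groups of 4 arrays tested, 1 array of a WNT gene stood apart from the other 3, and chance flags about 1 in 20 such groups. DKK3 was at 10.84 in the testis of embryo 21, against 8.95 to 9.20 in the other testes. FZD3 was at 5.90 in the testis of embryo 16, against 6.19 to 6.23 in the others. SFRP1 was at 8.02 in the brain of female embryo 12, against 6.88 to 7.06 in the other female brains. FZD8 was at 7.9 in the heart of female embryo 2, against 7.47 to 7.49 in the other female hearts. FZD7 and WNT11 were at 4.48 and 4.45 in the brain of female embryo 20, where the other female brains lay at 4.52 for FZD7 and 4.51 to 4.52 for WNT11, so these gaps were very small.

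The sex difference in gonad departed from the mean of those in brain and heart for 6 genes, by test of that difference: DKK3 by 2.22, FZD4 by 1.01, FZD1 by 0.54, CTNNB1 by -0.51, FZD8 by -0.85 and WNT5A by -1.91.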

How the results depend on the processing

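Named WNT genes were examined again under each alternative (1453 repeats), and 1388 repeats kept both direction and side of the threshold. That count includes repeats whose direction could not change. The level filter and the other fold thresholds reused the main fit. Fits of the compared tissues alone, or without an embryo that had no array in them, left the difference itself unchanged. No gene called in a comparison changed direction in any repeat, and small differences that were not called did in 21 repeats. In gonads, FZD2 was at 0.01 to 0.03 without embryo 12, 16 or 21 and at 0.02 without the ovaries of embryos 2 and 12, FZD3 at 0.43 as the mean of its probe sets and 0.04 without embryo 20, NKD1 at 0.04, 0.07 and 0.10 without embryos 16, 20 and 21, WNT11 at 0.01 with centred arrays and 0.00 without the ovaries of embryos 2 and 12, and WNT5B at 0.13 without embryo 2. TCF7L2 in brain was at -0.13 as the mean of its probe sets and -0.01 without embryo 12 or 21. LRP5 in gonad against heart was at -0.06 with centred arrays and -0.02 without embryo 21, and in brain against heart AXIN1 was at -0.04 and -0.03 without embryos 2 and 12, and CTNNB1 at -0.04 and -0.02 without embryos 16 and 20. Over the omission of each embryo, these differences ran in gonads from -0.15 to 0.03 for FZD2, from -0.18 to 0.04 for FZD3, from -0.21 to 0.10 for NKD1 and from -0.48 to 0.13 for WNT5B, and elsewhere from -0.01 to 0.32 for TCF7L2, from -0.02 to 0.16 for LRP5, from -0.04 to 0.11 for AXIN1 and from -0.04 to 0.06 for CTNNB1. Of genes not called in gonads, DKK4 (-1.55) and WNT6 (-1.14) were called without embryo 9, and FZD5 (-1.23) without embryo 19. The fit without the ovaries of embryos 2 and 12 rests on 1 ovary, and there FZD7 differed by -1.43 and SFRP4 by 2.05. For SFRP4 that ovary, of embryo 20, was the highest at 6.19. The counts of genes called, taken over both directions for gonad against soma, moved by more than 1.5 times in 3 cases: 5 genes were higher in ovary than testis with no fold threshold (AXIN2 and FZD6 were added), 1 was lower in female than male heart without embryo 10 (WNT5A), and 3 instead of 6 had a sex difference in gonad unlike that in soma without embryo 21. Over the omission of each embryo, the genes higher in ovary numbered 2 to 4, those lower in ovary 6 to 9, those lower in female heart 0 to 1, and those whose sex difference differed between gonad and soma 3 to 7. With the embryo as a replicate block (correlation 0.121), 3 genes were higher and 6 lower in ovary, and the block changed no call in any comparison. At a fold-change over 2, FZD4 and LRP5 were no longer called in gonads. WNT9A was not tested where a group mean of at least 6 was required. Signal over background limits DKK2, DKK4, FZD5 and WNT6, whose ovary means lay below 4.0. It also limits WIF1, close to background in the ovaries of embryos 12 and 20, and WNT11, which was nearly constant in gonad and brain. The number of embryos limits what could be detected in brain and heart.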
